A study of Mus musculus with 2 samples.

Results

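Of 2741 cJUN peaks in the embryonic mouse intestine, 378 (13.8%, exact Clopper-Pearson 95% interval 12.5 to 15.1) lay in gene deserts. They were chosen by position alone, with no use of peak strength. In 272 of them the smallest distance to a listed gene was above 500 kb, and the other 106 had no gene listed at all. The peaks come from chromatin immunoprecipitation followed by sequencing (ChIP-seq), with 1 cJUN immunoprecipitate set against 1 input library of sheared DNA that saw no antibody. Both libraries share their source. The mice were C57BL/6 of wild type genotype, and the whole intestines of 8 embryos of 1 litter, taken at E14.5, were pooled and kept for 24 h in transwell culture. The immunoprecipitate was made with a rabbit polyclonal antibody to cJUN. The whole organ was used, so which of its cell types holds a site cannot be told. With 1 library per group, no value has a replicate error, and no difference between sets of peaks was tested, since peaks of 1 library are not replicates. Intervals below cover counting error only.

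cJUN is a subunit of AP-1, a dimeric transcription factor that responds to growth factors and stress and binds both promoters and distant enhancers. Gene deserts are long intervals without genes. Some of them hold enhancers that act on a developmental gene at their edge over large distances, and large neuronal adhesion genes are known to sit beside or within such intervals. A peak far from any start site therefore lists, as its nearest gene, whichever gene borders the desert, and the list alone does not say that the gene is a target.

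The desert peaks were close to the others in median score and length, and few of them had high scores. Their median score, which is 10 times the −log10 of the p-value of the authors' caller, was 61.07 (quartiles 57.4 and 67.2), against 61.3 (57.1 and 68.4) for the other 2363 peaks. Their median fold over background was 17.59 (quartiles 14.74 and 18.42), against 16.53 (14.07 and 18.42) for the other peaks. The median length was 149 bp in both sets. No desert peak reached 500 bp (0 of 378, upper limit 0.971%, longest 460 bp), whereas 79 of the other peaks did (longest 19519 bp). A score of at least 100 was found at 7 desert peaks (1.85%, interval 0.748 to 3.78) and 120 other peaks (5.08%, 4.23 to 6.04), where the share over all peaks was 4.63%. A fold under 10 was found at 22 desert peaks (5.82%, 3.68 to 8.68) and 309 other peaks (13.1%, 11.74 to 14.503), against 12.1% over all peaks. At the other end, a fold of at least 20 was found at 72 desert peaks (19.05%, 15.2 to 23.4) and 378 other peaks (16.0%, 14.54 to 17.5), with 16.4% over all peaks. The fold and score are the authors' values. Some folds recur, and 18.42 alone was given to 102 desert peaks (27.0%) and 551 other peaks (23.3%).

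**Figure D1:**
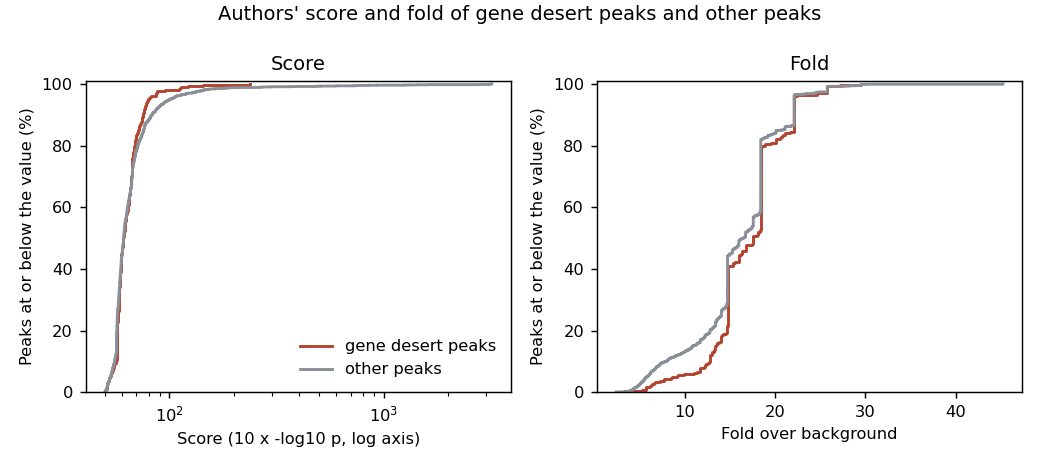
Cumulative share of peaks (vertical axis, %) by the authors' score (left, log axis) and fold over background (right) for 378 gene desert peaks and 2363 other peaks. The curves of the score lie together up to about the upper quartile (67.2 for desert peaks and 68.4 for other peaks), after which the other peaks reach further right. In the fold, desert peaks have fewer values under 10.

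The median score did not change stepwise with remoteness, but high scores were less frequent far from genes. The median score was 61.3 for the 918 peaks within 50 kb of a listed gene, 61.07 for the 1445 at 50 to 500 kb, 60.6 for the 158 at 500 to 750 kb, 61.39 for the 114 beyond 750 kb and 61.88 for the 106 with no gene listed. The 95% interval of the median for the peaks with no gene, 59.7 to 66.11, holds the other 4 medians. A score of at least 100 was found at 6.32% of the peaks within 50 kb and 4.29% at 50 to 500 kb. The share was 1.90% (3 peaks) at 500 to 750 kb, 2.63% (3 peaks) beyond 750 kb and 0.943% (1 peak) with no gene listed. The threshold of 500 kb fell in a continuous range of distances. The 3 peaks just outside it lay 497 kb from Dsel, 498 kb from Arl4a and 499.5 kb from Nfib, and the 3 just inside lay 501 kb from Gm10308, 503 kb from 4930412D23Rik and 503 kb from Vrk1.

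The strongest desert peaks were mostly very short and of low fold. Of the 7 with a score of at least 100, 5 were only 75 to 89 bp long, with folds of 5.22 to 6.31. Of the 120 other peaks with such a score, 19 were shorter than 100 bp. Over all scores, peaks under 100 bp made up 13 of 378 desert peaks (3.44%, 1.84 to 5.81) and 125 of 2363 other peaks (5.29%, 4.42 to 6.27), with median folds of 6.31 in the deserts and 7.22 elsewhere. The highest score in the deserts, 237.42, ranked 27th in the whole list. It belonged to a peak of 216 bp on chromosome 14 from 86598789 to 86599005 (mm9), 942 kb downstream of Diap3, which encodes a formin that builds actin filaments, with a fold of 7.31. The next was a peak of 82 bp on chromosome 4 from 31281334 to 31281416, 770 kb upstream of Map3k7, the gene of the TAK1 kinase of the TGF-beta and inflammatory pathways, scoring 143.69 at a fold of 6.31. A peak of 89 bp with no gene listed, on chromosome 14 from 91310973 to 91311062, scored 121.6 at a fold of 5.71. Others of this shape were listed 681 kb from 5930403N24Rik (score 119.94), 578 kb from Lcorl (113.87) and 809 kb from Lphn3 (110.32). Only the peak on chromosome 14 from 74465630 to 74465825 combined a score above 100 (111.63) with a fold above 10 (12.41). It lay between Htr2a, a serotonin receptor gene, at 575 kb and Sucla2, a mitochondrial succinate-CoA ligase gene, at 513 kb.

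Below these, high score and high fold went together at 3 of the 10 highest-scoring desert peaks. A peak 827 kb upstream of Slit2, the gene of a secreted axon repellent, on chromosome 5 from 47548981 to 47549159, scored 95.28 at a fold of 25.79. A peak 568 kb downstream of Vgll3, a cofactor gene of TEAD transcription factors, on chromosome 16 from 66384262 to 66384407, scored 89.6 at a fold of 27.2. The third, on chromosome 14 from 110259259 to 110259422, lay 946 kb from Slitrk1 and 895 kb from Slitrk6, genes of neuronal adhesion proteins, scoring 87.96 at a fold of 25.79. These 3 are also among the 5 desert peaks with the highest fold, where ties were ordered by score. Other desert peaks, such as those near Pou3f2 and Tenm2, shared the fold of 25.79 at lower scores. The highest fold of all, 29.48, was at a peak with no gene on chromosome X from 129100326 to 129100511, with a score of 82.36, and the fifth, 25.79, at a peak with no gene on chromosome 14 from 92830897 to 92831010, with a score of 79.24.

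Desert peaks were spread over 19 of the 21 chromosomes with a peak. Chromosomes 8 and 14 held 34 each and chromosomes 1, 3 and X held 33 each, which together make 167 of 378 (44.2%, interval 39.1 to 49.3). As a share of a chromosome's own peaks, chromosome 14 came first, with 34 of 147 peaks in deserts (23.1%, 16.6 to 30.8), then chromosome 16 with 20 of 100 (20%, 12.7 to 29.2) and chromosome 12 with 20 of 106 (18.9%, 11.9 to 27.6). Chromosome 7 had 7 of 164 (4.27%, 1.73 to 8.60) and chromosome 19 had 0 of 30 (upper limit 11.6%), against 13.8% over all chromosomes. The X chromosome was not set apart by this measure. It held 33 desert peaks (8.73%, 6.09 to 12.04) and 201 other peaks (8.51%, 7.41 to 9.70), with 8.54% over all peaks.

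**Figure D2:**
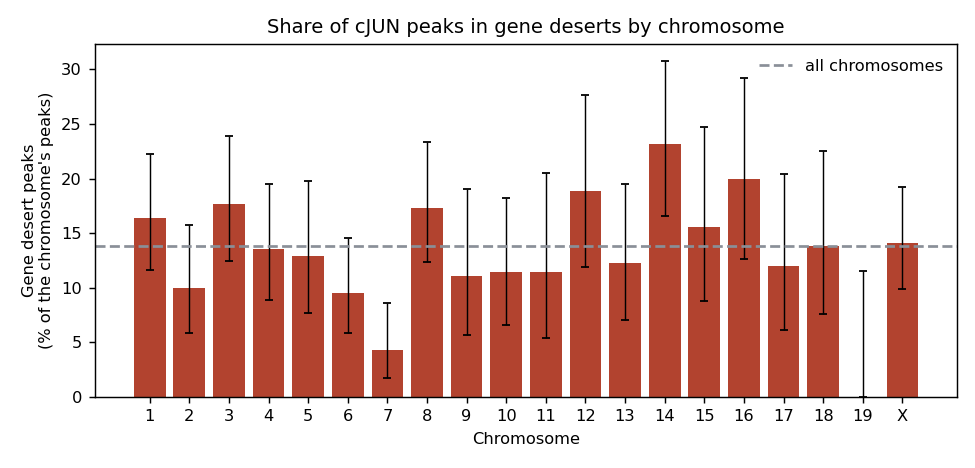
Gene desert peaks as a share of each chromosome's cJUN peaks (bars, %, with exact 95% intervals for counting error), with the share over all chromosomes (13.8%) as a dashed line. Chromosome 14 (23.1%) is highest, and chromosomes 7 (4.27%) and 19 (0 of 30) are lowest. Chromosome Y, with 1 peak, is not drawn.

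The 272 desert peaks with a listed gene named 232 different genes, which are called bordering genes here. Of these, 221 matched a symbol or synonym in the RefSeq gene table of GRCm38.p6, and 198 were protein-coding. The nearest listed gene was 693 kb away at the median (range 501 to 994 kb). Peaks lay upstream and downstream of that gene equally often, 136 of 272 each way. A single bordering gene was usually named once, but 81 of 232 (34.9%) were named at 2 or more desert peaks, up to 6. For 88 genes (37.9%), every peak that named them lay in a desert. This holds by definition for a bordering gene named at only 1 peak in the whole list, such as Acvr2a or Irx1. No matching share over all listed genes was taken for either count.

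Genes of the neural lists were frequent at the borders. Among 2963 genes listed at any peak, 232 (7.83%) were listed at a desert peak, and this is the background for each list. The 6 neural lists together had 173 genes at a peak, of which 42 (24.3%, interval 18.1 to 31.4) bordered a desert. Of these 42, 14 came from the list of cadherins and protocadherins. That list was drawn by symbol, so its genes need not be specific to neurons. The 6 developmental lists had 148 genes at a peak, of which 14 (9.46%, 5.27 to 15.4) bordered a desert. Put the other way, neural list genes made up 18.1% of bordering genes and 5.84% of all listed genes, while developmental list genes made up 6.03% of bordering genes and 4.99% of all listed genes. The best desert peak per gene had a median score of 66.45 for the neural lists, 64.32 for the developmental lists and 63.645 for all 232 bordering genes.

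**Figure D3:**
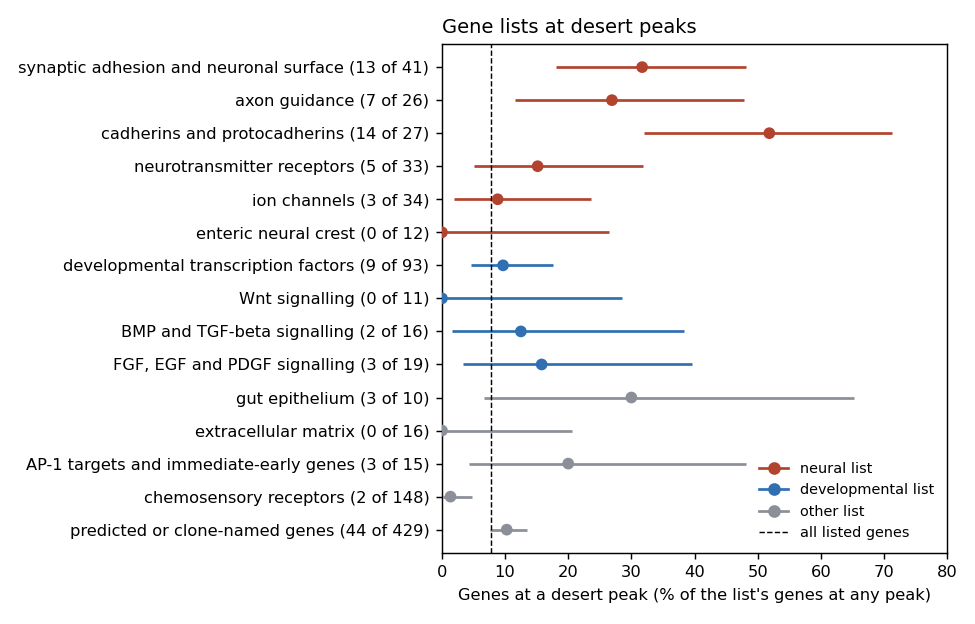
For each gene list with at least 10 genes at any cJUN peak, the share of those genes that are listed at a desert peak (points, %, with exact 95% intervals for counting error), and the share over all listed genes (dashed line, 7.83%). Cadherins and protocadherins lie furthest right (14 of 27), followed by synaptic adhesion (13 of 41) and gut epithelium (3 of 10). Chemosensory receptors lie left of the line (2 of 148).

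The neural share differed with distance from the gene and was highest beyond 750 kb, with no increase across the limit of 500 kb. The nearest listed gene was in a neural list for 3.49% of the peaks within 50 kb, 6.10% at 50 to 250 kb, 12.9% at 250 to 500 kb, 12.03% at 500 to 750 kb and 34.2% (39 of 114, interval 25.6 to 43.7) beyond 750 kb. Counting each gene once gave 3.76%, 6.71%, 13.0%, 12.7% and 30.3% (27 of 89 genes) in the same order. The developmental lists gave 3.49%, 5.51%, 6.54%, 7.59% and 3.51% over the same distances. Gene length moves with this. Of the bordering genes that matched, 30 of 221 (13.6%) are longer than 500 kb in GRCm38.p6, against 143 of 2870 (4.98%) for all listed genes, and its part in the neural share was not tested.

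**Figure D4:**
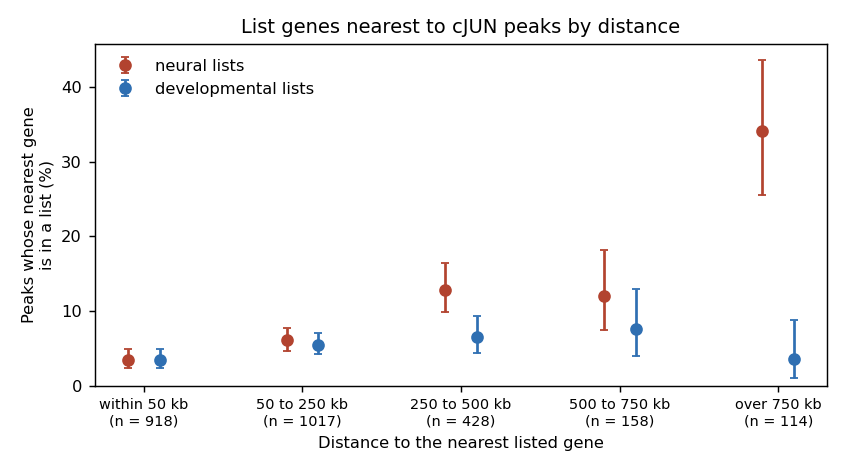
Share of peaks whose nearest listed gene belongs to a neural or a developmental list (points, %, with exact 95% intervals), by distance to that gene. The neural share is 3.49% within 50 kb and 34.2% beyond 750 kb, and the developmental share stays between 3.49% and 7.59%.

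Cadherins, which join cells through calcium-dependent contacts, and the related protocadherins had the highest share of any list with 10 or more genes. Of 27 with a peak, 14 bordered a desert (51.9%, interval 31.9 to 71.3), through 19 desert peaks. Several of them were classical type II cadherins on chromosome 15. Cdh6 had desert peaks 873 and 936 kb upstream, with scores of 64.28 and 60.38. Cdh9 had a pair 659 and 858 kb upstream, with scores of 66.77 and 64.83. Cdh10 had 1 peak 894 kb upstream, with a score of 59.7. Cdh12 and Cdh18 on the same chromosome each had a pair of peaks downstream of the start site, at 759 and 834 kb for Cdh12 (scores 56.28 and 66.13) and at 694 and 697 kb for Cdh18 (74.58 and 67.23). Elsewhere, Cdh8 and Cdh11 on chromosome 8 had 1 desert peak each, 952 and 818 kb downstream. The strongest protocadherin peaks were listed at Pcdh7 on chromosome 5 (780 kb, score 77.73, fold 22.11), Pcdh20 on chromosome 14 (819 kb, score 67.95) and Pcdh10 on chromosome 3 (917 kb, score 67.03). Cdh2, Fat1, Pcdh17 and Pcdh11x completed the group. All 14 of these best peaks scored between 56.93 and 77.73, within the ordinary range of the list.

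Synaptic adhesion and neuronal surface genes had 13 of 41 at a desert peak (31.7%, interval 18.1 to 48.1), through 30 peaks. The Slitrk family, leucine-rich repeat proteins that promote synapse formation, supplied 4 of them. Slitrk5 on chromosome 14 had 6 desert peaks, which is the highest number and is shared with Tpm3-rs7, listed at the same peaks. They lay at 660 to 953 kb downstream with scores of 56.7 to 67.5 and folds of 8.57 to 18.42. Slitrk1 had 3, at 532 to 946 kb upstream, and shares the strongest with Slitrk6. Slitrk2 on chromosome X had 1, at 721 kb. Lphn3, an adhesion receptor of the latrophilin type, had 3 desert peaks and no other, 1 of them upstream at 809 kb and the other two downstream at 887 and 994 kb. Cntnap5b, a contactin-associated protein gene, had a pair, the stronger at 586 kb scoring 76.49 at a fold of 22.11. Tenm2, a teneurin gene, had a pair with an identical distance to within 1 kb, 814 kb upstream, with scores of 76.12 and 61.47. The others were Il1rapl1, Lrrtm4, Cadm2, Ncam2, Cntnap2 and Lsamp.

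Axon guidance genes, whose products steer growing axons by attraction or repulsion, had 7 of 26 at a desert peak (26.9%, interval 11.6 to 47.8). Besides Slit2, with desert peaks at 827 and 856 kb upstream, they were the semaphorin gene Sema6d (856 kb, score 76.91), the ephrin receptor genes Epha7 (3 peaks at 807 to 924 kb, best score 69.39) and Epha5 (558 kb, 59.47), the plexin gene Plxna2 (534 kb, 57.75), the netrin receptor gene Unc5d (949 kb, 57.34) and the ephrin gene Efnb2 (977 kb, 53). Receptors and channels were closer to the background. Neurotransmitter receptors had 5 of 33 (15.2%, 5.11 to 31.9), among them Htr2a, Chrm3 and Htr2c. Ion channels had 3 of 34 (8.82%, 1.86 to 23.7), the potassium channel genes Kcnj3, Kcnt2 and Kcnma1. The enteric neural crest list, the one made of genes of the gut's own neurons and their precursors, had 12 genes at a peak and 0 at a desert peak (upper limit 26.5%).

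Developmental regulators bordered deserts about as often as any listed gene. Transcription factors had 9 of 93 (9.68%, interval 4.52 to 17.6). Mef2c, a MADS-box factor gene of muscle and neurons, had the strongest desert peak of these, on chromosome 13 from 82711737 to 82711919, 931 kb upstream, scoring 83.08 at a fold of 22.11. Pou3f2, a neural POU factor gene on chromosome 4, had 4 peaks in the whole list and all 4 lay in the desert upstream of it, at 584, 651, 709 and 801 kb, with scores of 67.23, 74.1, 56.7 and 65.64. Atoh1, the switch gene of secretory cells in the gut epithelium, was named at 571 kb by 1 desert peak (score 76.86). Irx1, Nr2f1, Zic1, Klf6 and Klf4 had 1 desert peak each, at 504 to 751 kb, with scores of 54.55 to 65.91.

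Among signalling genes, the growth factor list had 3 of 19 at a desert peak (15.8%, interval 3.38 to 39.6), all of the neuregulin system. The ligand genes Nrg3 and Nrg1 had best scores of 76.91 and 72.19, and the receptor gene Erbb4 60.6. The BMP and TGF-beta list had 2 of 16 (12.5%, 1.55 to 38.3), which were Fstl5, a follistatin-like gene, at 947 kb and Acvr2a, an activin receptor gene, at 740 kb. Hedgehog (0 of 7), Wnt (0 of 11) and Notch genes (0 of 3) had none, and the upper limits of 41.0%, 28.5% and 70.8% leave room for a share well above the background.

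The lists outside the nervous system and development were small, apart from the last 2 named here. No bordering gene was found among 16 matrix genes, 7 mesenchyme and smooth muscle genes, 6 endothelial and blood genes, 6 ribosomal protein genes or the 1 AP-1 subunit gene at a peak, with upper limits of 20.6% for matrix genes and 41.0 to 97.5% for the others. The gut epithelium list had 3 of 10 (30%, interval 6.67 to 65.2), which were Atoh1, Olfm4 and Klf4. The AP-1 target and immediate-early list had 3 of 15 (20%, 4.33 to 48.1), which were Myc, Klf6 and Klf4. Myc, the proto-oncogene of cell growth, had a pair of desert peaks and no other on chromosome 15, 535 and 703 kb downstream, with scores of 71.72 and 68.7. Chemosensory receptors, which stand in dense arrays, had 2 of 148 (1.35%, 0.164 to 4.796), Vmn2r121 and Olfr136. Predicted or clone-named genes had 44 of 429 (10.3%, 7.55 to 13.5), the best scores being those of 5930403N24Rik (119.94), Gm6121 (80.35) and 1700112E06Rik (79.54).

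Some of these peaks lie within a very long gene and not between genes, so the name gene desert does not hold for them. A peak was counted as inside when it lay downstream of a listed start site by less than the length of that gene in GRCm38.p6. This held for 21 of the 272 desert peaks that list a gene (7.72%, interval 4.84 to 11.6), in 17 genes. By start sites placed from other peaks, at least 2 of the 106 peaks with no gene listed (1.89%, 0.229 to 6.65) also lay inside a gene. They lay 1085 kb into Cntnap2 and 1006 kb into Ccser1. Genes without a placed start site could not be checked in this way. Lrp1b is 1 of these, and a peak with no gene shares its stretch, on chromosome 2 from 40644707 to 40644892. Neuronal genes were among those that held desert peaks. Lrp1b, a giant lipoprotein receptor gene, held the strongest, on chromosome 2 from 41751683 to 41751796, 757 kb into the gene (36.8% of its length), scoring 86.92 at a fold of 7.67. Cntnap2 held a pair at 623 and 779 kb, and Erbb4, Cdh12 and Cdh18 a pair each. Rbfox1, a neuronal splicing factor gene, held 1 peak at 669 kb with a score of 76.87. Others were in Nrg3, Kcnma1, Gpc5, Dpyd, Galntl6, Cadm2, Il1rapl1, Pcdh11x, 1700112E06Rik and 1700007B14Rik. In 1700007B14Rik, Kcnma1 and Pcdh11x the peak lay beyond 95% of the gene's length, so a shorter annotation would place it outside.

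Most desert peaks had another desert peak as a neighbour. Sorted along the chromosomes, they formed 161 stretches in which no other peak intervened. Only 70 stretches held a single peak, and 308 of 378 desert peaks (81.5%) shared a stretch with another. The rule selects by distance from genes, so adjacent peaks of 1 gene-poor interval tend to meet it together. No matching share was taken for other peaks. Neighbours within 10 kb were few, however. The median gap to the nearest peak of any kind was 203 kb for desert peaks and 240.2 kb for other peaks. A neighbour within 10 kb was found for 44 desert peaks (11.6%, interval 8.59 to 15.3) and 394 other peaks (16.7%, 15.2 to 18.2). Within 100 kb the order was reversed, with 142 desert peaks (37.6%, 32.7 to 42.7) and 759 other peaks (32.1%, 30.2 to 34.0). In 5 stretches the placed start site of a gene lay between the peaks, so those cover more than 1 desert. Genes without a placed start site were not counted, so 5 is a minimum. There were 35 stretches with 4 or more peaks, holding 180 desert peaks. Of these 35, 18 (51.4%, 34.0 to 68.6) named a gene of a neural list, against 24 of the 126 shorter stretches (19.05%, 12.6 to 27.0). A longer stretch names more genes, and the part of this in the difference was not tested.

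**Figure D5:**
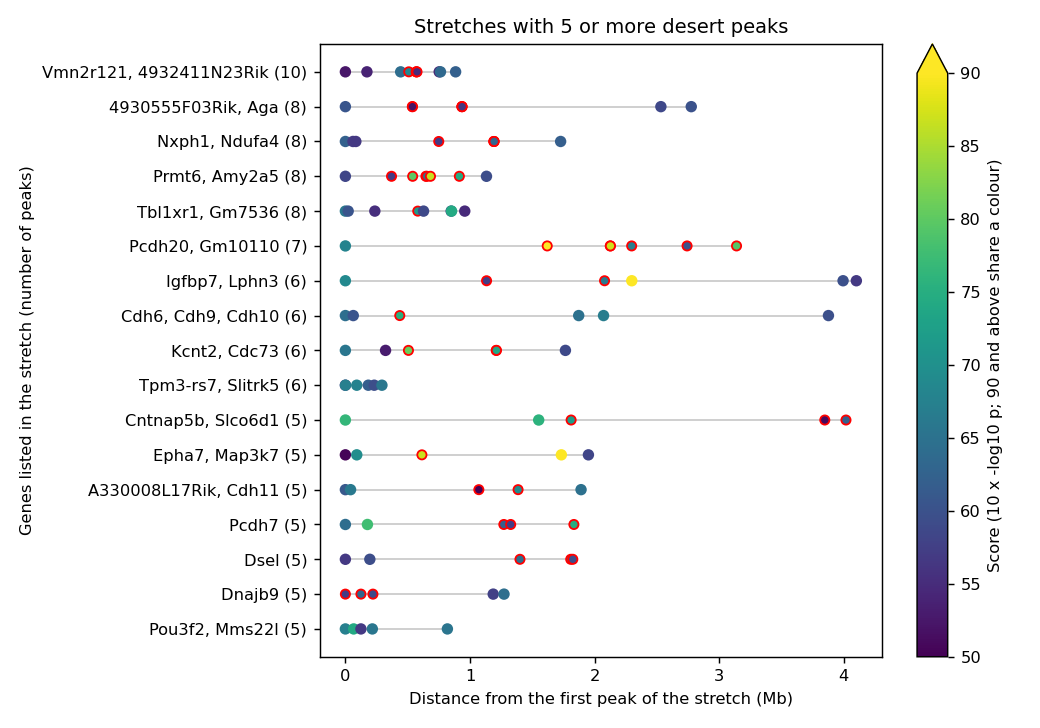
The 17 stretches with 5 or more desert peaks, each on a line of its own. Points are peaks at their distance in Mb from the first peak of the stretch, coloured by score, with a red rim where no gene is listed. The line of Vmn2r121 and 4932411N23Rik holds 10 peaks within 885 kb, and those of Igfbp7 and Lphn3 and of Cntnap5b and Slco6d1 extend over 4102 and 4019 kb.

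The stretch with the most peaks was on chromosome X from 121768155 to 122653573, between the vomeronasal receptor gene Vmn2r121 and 4932411N23Rik. Its 10 peaks had a median fold of 10.67 and scores of 51.25 to 68.42. The stretch of 8 peaks on chromosome 3 from 110954299 to 112087197, between Prmt6, an arginine methyltransferase gene, and the amylase gene Amy2a5, had a median fold of 18.42 and scores of 56.93 to 86.62, and 6 of its peaks listed no gene. The other 3 stretches of 8 peaks lay between Nxph1, a neurexin ligand gene, and Ndufa4 on chromosome 6, between Tbl1xr1 and Gm7536 on chromosome 3, and between 4930555F03Rik and Aga on chromosome 8. The 7 peaks of the stretch on chromosome 14 from 89690532 to 92831010 had a median score of 67.95. The first of them listed Pcdh20 and Gm10110, and the other 6 listed no gene. The Slitrk5 desert was the shortest of the 10 stretches with 6 or more peaks, with its 6 peaks within 293 kb. Further stretches of 6 named Lphn3 and Igfbp7, Cdh6, Cdh9 and Cdh10, and Kcnt2 and Cdc73. Those of 5 named Cntnap5b and Slco6d1, Epha7 and Map3k7, Cdh11 and A330008L17Rik, Pcdh7, Dsel, Dnajb9, and Pou3f2 and Mms22l.

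The 18 stretches of 4 peaks bordered a similar mix of genes. Neural list genes among them were Lrrtm4, Pcdh17, Efnb2, Pcdh11x, Slit2, Chrm3, Ncam2, Slitrk1, Slitrk6 and Cadm2. The remaining genes of these stretches were Reg3g, Gcfc2, Olfm4, Cobl, Vstm2a, Tyrp1, Gm10800, Rag2, Gm1840, Gm6121, Snx16, Gm21411, Pik3c3, Nap1l3, Lcorl, Ryr2, Olfr136, Gm7148, Frg1, Triml1, Vgll3 and Plod2. Vgll3 was named by all 4 peaks of its stretch, at 568, 615, 773 and 939 kb, with folds of 27.2, 18.06, 22.11 and 18.42.

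The 82 desert peaks that named 2 genes give the genes on both sides. They named 62 different pairs of genes, and in 49 pairs both start sites could be placed, always on opposite sides of the peak. The intervals between those start sites were 1068 to 1870.1 kb wide, with a median of 1412 kb. These widths are bounded by the choice of peaks, since each of the distances must be above 500 kb and no distance in the list exceeded 1000 kb but 1. They are therefore no measure of how wide deserts are, and a wider one names at most 1 gene per peak. The 8 widest lay between Unc5d and the phosphatase gene Dusp26 (1870.1 kb), Mageb4 and Il1rapl1 (1859 kb), Sema6d and Sqrdl (1845 kb), Slitrk1 and Slitrk6 (1841 kb), Cadm2 and Vgll3 (1805 kb), Tsga8 and 1600014K23Rik (1762 kb), Frg1 and Triml1 (1724 kb), and Mef2c and Cetn3 (1721 kb). The first 5 each have the start site of a neural list gene at an edge. The peak between Mageb4 and Il1rapl1 lies inside Il1rapl1, at 64.7% of its length in GRCm38.p6. The peak between Cadm2 and Vgll3 lies inside Cadm2, at 89.7%. An interval between start sites can therefore be partly filled by the body of an edge gene. In the gene order of GRCm38.p6, 37 of 46 pairs that could be looked up (80.4%, interval 66.1 to 90.6) have no protein-coding gene between them. Long noncoding RNA genes are annotated between 36 of the 46, with a median of 2 and up to 9, so these intervals are deserts of protein-coding genes more than of transcripts.

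The 106 peaks with no gene lay on 19 chromosomes and in 54 stretches, and 88 of them shared a stretch with a desert peak that lists a gene. Start sites placed by other peaks of the list show what flanks them. The nearest such start site was 1006 to 2771 kb away, with a median of 1423 kb, and genes without a placed start site can lie nearer. The strongest 2, with scores of 121.6 and 87.09, both lay on chromosome 14 between the protocadherin genes Pcdh20 and Pcdh9. For the stronger, these start sites were 2439.8 and 2977 kb away, and for the other 2947 and 2469 kb. Gm10110, listed 608 kb from the first peak of that stretch, has no placed start site. By that distance it starts between Pcdh20 and both peaks, so Pcdh20 is not their nearest gene on that side. The next, on chromosome 4 from 30161829 to 30162041 with a score of 86.86, lay between Epha7 (1422 kb) and Map3k7 (1889 kb). A peak on chromosome 3 from 111637432 to 111637600, with a score of 86.62, lay between Prmt6 (1584 kb) and Amy2a5 (1424 kb). The peak of highest fold, on chromosome X, lay 1285 kb from Tnmd, a tendon membrane protein gene. The sixth, on chromosome 1 from 143223048 to 143223120, scoring 80.83 at a fold of 6.59, lay between Kcnt2 (1080.3 kb) and Cdc73 (2231 kb).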

How the data were processed

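Per the submitters' processing notes, which give no role or order, the tools were Bowtie 1.1.0 and MACS 1.4 on mm9. Read filters, the peak threshold and how genes were assigned are not given in the sources used here. A single list of peaks was deposited by the authors. Its fold is a ratio of peak over background and its score is 10 times the −log10 p, per the file headers, and both were used only to describe and rank peaks within the list. Positions and distances were deposited in bp and are printed as given, on mm9. Read totals were not used here, so depth is unknown. How multiply aligned and duplicate reads were treated is not given either, and this can change peaks in repeated sequence.

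The sign of a distance was read as upstream (negative) or downstream (positive) of the gene. With gene strands from RefSeq (GRCm38.p6), this placed 663 of 675 genes with several peaks at 1 position to within 1.5 bp, and the opposite reading 5. Start sites were so placed for 2400 genes, 259 of them without a known strand. Of 2963 names, 2870 matched that table, which gave names, strands, lengths and gene order only. In 9 of 4535 matched listings the table has the gene on another chromosome, and these placed no start site. Genomic sequence of the build of the files was not used here.

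A stretch is a run of consecutive desert peaks on 1 chromosome. Gene lists are symbol patterns and can overlap. Members and lists were chosen with earlier results of these data known. Named genes follow a rule of highest scores, highest folds, stretches of 4 or more peaks, widest intervals and best peaks per list. Some genes that this rule names are not reported here. The peaks inside genes, short peaks, distance bins and shares by stretch were examined after values were seen. No test was made. Shares have exact Clopper-Pearson 95% intervals and medians have 95% intervals from binomial order statistics. Scripts ran in Python 3.11.15 with scipy 1.17.1 and were tested on simulated peaks. Alternatives were distance limits of 250 and 750 kb, no peaks without a gene, scores of 60 or more, folds of 10 or more, peaks within 10 kb counted once, members joined within 1 Mb and the nearest gene only.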

Additional observations from a re-analysis of the deposited data

How the results depend on the processing

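Of 61 recomputed values, 51 stayed within the interval of the reported value, or within 1.5 times a count, and 10 did not. These follow from what each alternative keeps. With a limit of 250 kb there were 806 desert peaks (29.4% of all) in 327 stretches, and with 750 kb 220 (8.03%) in 96 stretches, where neural list genes made up 29.2% of bordering genes. Without the peaks that list no gene the share of all peaks was 9.92%. Among peaks with a score of at least 60, 208 were desert peaks and their median score was 67.03. The median fold and length, the share on chromosome X and the developmental share stayed within their intervals in every alternative run for them. The neural share was 13.5 to 21.8% in the other alternatives, and 16.5% without the peaks inside a listed gene, an alternative chosen after seeing the data. Splitting stretches at placed start sites, also chosen after seeing the data, gave 167 in place of 161. No paired analysis was possible because each group has 1 library. The depth of the libraries is unknown, so what a weaker site would need to be called cannot be given.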

Other observations

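A few of the 232 bordering genes that are in none of the lists are known from the mature intestine. They were picked after their values were seen, from no fixed list, so nothing follows about how often such genes border deserts. Isx, an intestine-specific homeobox gene on chromosome 8, had desert peaks 522 and 627 kb upstream, with scores of 58.82 and 51.49. Sis, which encodes the brush border enzyme sucrase-isomaltase, had a pair on chromosome 3, 692 and 941 kb downstream, with scores of 56.93 and 75.28. Reg3g, an antimicrobial lectin gene, was named 664 and 813 kb upstream by the same peaks as Lrrtm4, with scores of 74.47 and 58.03. Tmprss15, the enteropeptidase gene, had 1 at 695 kb with a score of 59.7.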
